A study of Homo sapiens with 6 samples.

Results

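The 9 enzyme genes described here carry out serine synthesis and the folate one-carbon cycle: PHGDH, PSAT1, PSPH, SHMT1, SHMT2, MTHFD1, MTHFD1L, MTHFD2 and ALDH1L2. They were picked by symbol from the 59248 gene symbols of the deposited table, with the difference between the groups in these libraries already known. All 9 passed the filter on low values, which left 21055 genes. The samples were 3 RNA-seq libraries of Jurkat overexpressing PDCD1 28 (OE) and 3 of Jurkat carrying the vector (Vec). Jurkat is a long-established line from a human T-cell leukemia. PDCD1 28 is a PD-1 receptor transcript in which 28 bases of intron 2 are retained. Per the growth protocol both groups are Jurkat KO-1 cells grown in RPMI1640 with serum; neither the meaning of KO-1 nor whether a group is 1 clone is stated. Separate cultures are not stated either, so each SD, SE and p-value reflects differences between libraries that could be technical.

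Cells make serine from 3-phosphoglycerate, an intermediate of glycolysis. PHGDH oxidises it, PSAT1 adds an amino group taken from glutamate, and PSPH removes the phosphate. Serine hydroxymethyltransferases then split serine into glycine and a carbon unit carried by tetrahydrofolate, in the cytosol (SHMT1) and in the mitochondrion (SHMT2). In the mitochondrion MTHFD2 oxidises that unit and MTHFD1L releases it as formate, while ALDH1L2 can burn it to carbon dioxide with production of NADPH. In the cytosol the trifunctional enzyme MTHFD1 takes up formate for purine and thymidylate synthesis. Proliferating T cells and T-cell leukemias are known to rely on this route, and ATF4, a transcription factor of the amino acid response, is known to induce several of its genes.

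The libraries held 59911578 to 84220970 estimated counts. PDCD1, the overexpressed gene, had 945, 1059 and 807 estimated counts in OE against 14, 18 and 15 in Vec; these counts are per gene and do not separate its isoforms. The 13 T-cell markers examined, among them CD3E and LCK, were all detected, and their summed level, in counts per 1000000 of the library total, ran from 3010 to 3060 in OE and from 2920 to 3100 in Vec. Singly, 8 of the 13 fell in OE, LCK among them, 2 rose and CD3E was not called (edgeR, adjusted p under 0.05), with a median log2 fold change of -0.41, against 23.4% of all genes called lower. CD2 averaged 4.32 ± 0.312 CPM in OE and 25.6 ± 1.71 CPM in Vec (SD, n = 3 each). The 7 B-cell markers summed to 30.0 to 38.1 in OE and 47.1 to 63.3 in Vec, with MS4A1, PAX5 and CD22 at or under 12 estimated counts in every library. Those of 7 myeloid markers were 37.2 to 40.2 in OE and 48.1 to 54.9 in Vec, those of 6 natural killer cell markers 2.10 to 2.79 in OE and 1.28 to 2.34 in Vec, and those of 8 epithelial and fibroblast markers 3.22 to 4.07 in OE and 4.03 to 5.26 in Vec. The part of these levels in the results below was not tested. Vector replicate 2 lay apart from the other Vec libraries on the second principal component, which held 12.1% of the variance.

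Most of the 9 genes were higher in OE, with PSAT1, PHGDH and SHMT2 showing the largest log2 fold changes. Across all genes, 46.1% passed the edgeR threshold of adjusted p under 0.05, 22.6% of those tested as higher in OE and 23.4% as lower. Of the members, 7 passed as higher, 1 (MTHFD1) as lower, and ALDH1L2 did not pass. In 8 of the 9 the OE and Vec libraries did not overlap, against 58.7% of all genes tested. The members were chosen with this contrast known, so these counts and the fold changes that follow are descriptions and are not set against a chance level. The median log2 fold change of the 9 was 0.56, and that of all genes tested 0.02. Together the 9 genes held 0.259% ± 0.00366 of all counts in OE and 0.130% ± 0.00525 in Vec (SD, n = 3 each). In bulk RNA, fewer expressing cells and less RNA per cell cannot be told apart.

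**Figure D1:**
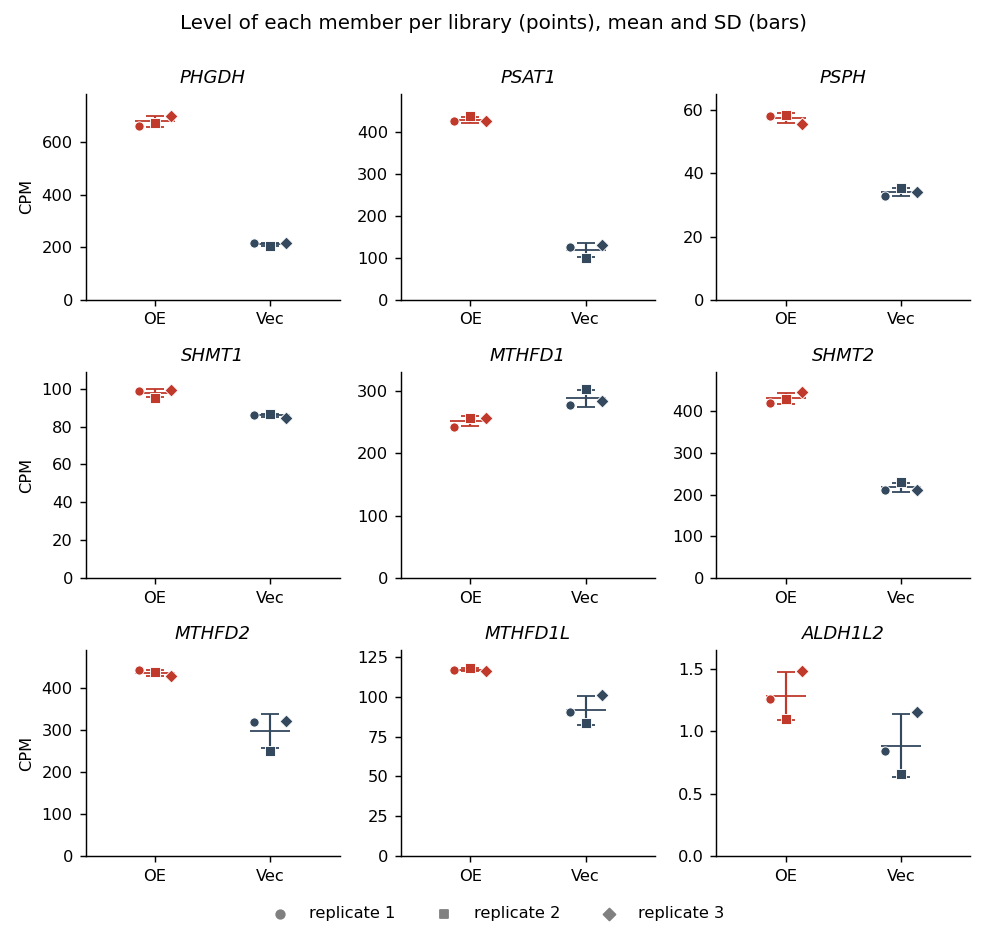
Level of each of the 9 genes in CPM (counts per 1000000, vertical axis from 0) in the 3 OE and 3 Vec libraries; points are libraries, long bars means and whiskers SD. The groups are apart in 8 genes, with MTHFD1 the one that is lower in OE, and overlap in ALDH1L2.

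PHGDH, which encodes the dehydrogenase that commits 3-phosphoglycerate to serine (chromosome 1, 119648411 to 119744226, plus strand, GRCh38), had 661.5, 672.1 and 700.3 CPM in OE, against 214.9, 203.2 and 214.2 CPM in Vec. CPM here are estimated counts per 1000000 of the library size after adjustment by edgeR's TMM factors. Each OE library stood about as high as the next, and the lowest of them lay far above the highest Vec library. The change was 3.22-fold (log2 fold change 1.69 ± 0.05, SE), and 95.4% of all genes tested had a smaller log2 fold change.

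PSAT1, the gene of phosphoserine aminotransferase (chromosome 9, 78297143 to 78330093, plus strand), had 424.8, 436.9 and 424.5 CPM in OE, against 124.6, 99.2 and 129.5 CPM in Vec. Vector replicate 2 was the lowest Vec library, and the Vec spread of 13.8% of the mean was wider than the 1.64% of OE. Its log2 fold change, 1.86 ± 0.09 (SE), was the largest of the 9, at 3.64-fold. PSPH, the gene of phosphoserine phosphatase, the last step (chromosome 7, 56011051 to 56051604, minus strand), had 58.2, 58.6 and 55.8 CPM in OE, against 32.8, 35.4 and 34.1 CPM in Vec. All OE libraries were above all Vec libraries, by 1.69-fold (log2 fold change 0.76 ± 0.06, SE). The last step thus differed by less than the others: per length of the longest annotated transcript, the PSPH level was 0.124 ± 0.0067 times the PHGDH level in OE and 0.236 ± 0.016 times in Vec (SD, n = 3 each). PSAT1 over PHGDH, on the same scale, was 0.920 ± 0.034 in OE and 0.810 ± 0.089 in Vec, and its groups differed by little more than the Vec spread. With the union of exons as length, PSPH over PHGDH was 0.283 in OE and 0.54 in Vec. PSAT1 over PHGDH was then 2.67 in OE and 2.35 in Vec, so the size of these ratios rests on the length chosen.

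Stretches upstream of the RefSeq start sites are shown for 4 members, PSAT1, PHGDH and MTHFD1L as genes higher in OE and MTHFD1 as the one lower, because ATF4 and MYC are known to act through short promoter motifs. They cover the 250 bases before the start, 5′ to 3′, from RefSeq on GRCh38.p14, and capitals mark matches to TGATGNAA (the core of the response element read by C/EBP and ATF4 dimers), CACGTG (the E-box read by MYC) and CCAAT, on either strand.
PSAT1 (chr9:78296875-78297124, plus strand): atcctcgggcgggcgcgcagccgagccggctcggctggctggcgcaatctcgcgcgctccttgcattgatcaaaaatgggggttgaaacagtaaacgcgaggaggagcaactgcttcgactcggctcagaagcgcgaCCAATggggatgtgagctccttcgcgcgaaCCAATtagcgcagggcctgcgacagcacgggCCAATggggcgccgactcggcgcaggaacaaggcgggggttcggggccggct
PHGDH (chr1:119711684-119711933, plus strand): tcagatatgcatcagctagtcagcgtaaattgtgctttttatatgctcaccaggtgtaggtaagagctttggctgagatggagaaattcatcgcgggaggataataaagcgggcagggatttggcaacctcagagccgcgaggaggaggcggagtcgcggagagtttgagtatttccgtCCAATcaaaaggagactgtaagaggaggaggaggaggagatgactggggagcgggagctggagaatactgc
MTHFD1L (chr6:150866236-150866485, plus strand): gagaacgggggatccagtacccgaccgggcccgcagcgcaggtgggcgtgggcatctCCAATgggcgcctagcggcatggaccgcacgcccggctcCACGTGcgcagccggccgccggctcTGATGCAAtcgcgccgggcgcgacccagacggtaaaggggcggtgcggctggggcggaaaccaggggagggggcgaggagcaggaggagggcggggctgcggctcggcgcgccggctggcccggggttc
MTHFD1 (chr14:64388103-64388352, plus strand): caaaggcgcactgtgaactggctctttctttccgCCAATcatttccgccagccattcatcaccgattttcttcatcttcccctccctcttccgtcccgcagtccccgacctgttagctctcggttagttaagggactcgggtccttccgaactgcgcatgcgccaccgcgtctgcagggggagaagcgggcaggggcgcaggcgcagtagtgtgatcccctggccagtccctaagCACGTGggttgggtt
The stretches of PHGDH, MTHFD1L and MTHFD1 lie inside the gene spans printed for these genes. Those spans come from another annotation, GENCODE 29, and begin upstream of the RefSeq start used. RefSeq promoters were matched for 6 members, the 4 shown, MTHFD2 and SHMT1. In the window that runs from 250 bases before to 50 after the start, TGATGNAA was present in 1 of the 6, MTHFD1L, as TGATGCAA with its first base at -129. Of all 27305 promoters of that length 3.67% held it, and of the 10024 whose genes averaged 100 or more estimated counts 1.59%. CACGTG was present in 2 of the 6, MTHFD1L (-154) and MTHFD1 (-15), in 7.43% of all and in 10.3% of those 10024. CCAAT, searched after the sequences had been read, was present in all 6, with 3 copies in PSAT1 (-113, -83 and -52). It was present in 35.7% of all promoters and 37.4% of the 10024. Because that search followed the reading, the CCAAT count is a description and not a test against those shares. No match of one motif overlapped a match of another in the 6 promoters. A match is a run of letters, not a shown binding site.

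The cytosolic folate genes differed little between the groups, and in opposite directions. SHMT1, the cytosolic hydroxymethyltransferase gene (chromosome 17, 18327860 to 18363563, minus strand), had 98.9, 95.2 and 99.3 CPM in OE, against 86.1, 86.8 and 84.8 CPM in Vec. The lowest OE library lay above the highest Vec library, and the log2 fold change was 0.19 ± 0.04 (SE). MTHFD1, which encodes the trifunctional cytosolic enzyme (chromosome 14, 64388031 to 64463457, plus strand), had 242.7, 256.6 and 256.6 CPM in OE, against 277.4, 302.8 and 284.1 CPM in Vec. It was the one member with every OE library below every Vec library, at 0.875-fold (log2 fold change -0.19 ± 0.05, SE). MTHFD1 did not pass the threshold without OE replicate 1 or with upper-quartile factors, where its log2 fold change was still negative.

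Of the 4 mitochondrial genes, 3 were called higher in OE, to unequal degrees, and ALDH1L2 was not called. Across all genes tested, 22.6% were called higher. SHMT2, the mitochondrial hydroxymethyltransferase gene (chromosome 12, 57229327 to 57234935, plus strand), had 420.0, 429.1 and 446.3 CPM in OE, against 212.4, 230.9 and 211.5 CPM in Vec. Its OE libraries all stood far above the Vec ones, at 1.98-fold (log2 fold change 0.98 ± 0.05, SE). MTHFD2, the gene of the mitochondrial methylenetetrahydrofolate dehydrogenase and cyclohydrolase (chromosome 2, 74198562 to 74217565, plus strand), had 442.8, 438.6 and 428.2 CPM in OE, against 319.3, 249.9 and 321.6 CPM in Vec. Vector replicate 2 was well below the other Vec libraries, and no Vec library reached the lowest OE one. The log2 fold change was 0.56 ± 0.09 (SE), and over the alternatives tried it ran from 0.44 to 0.61.

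MTHFD1L, the mitochondrial formate-releasing synthetase gene (chromosome 6, 150865549 to 151101887, plus strand), had 116.7, 117.9 and 116.1 CPM in OE, against 90.3, 83.3 and 101.2 CPM in Vec. The SD was 0.787% of the mean in OE and 9.83% in Vec, the groups did not overlap, and the log2 fold change was 0.35 ± 0.07 (SE). ALDH1L2, the mitochondrial formyltetrahydrofolate dehydrogenase gene (chromosome 12, 105019784 to 105084577, minus strand), was scarce, with 82, 82 and 95 estimated counts in OE and 49, 53 and 78 in Vec. The groups overlapped in CPM, and the change of 0.54 ± 0.29 on the log2 scale (SE) did not pass the threshold; leaving out vector replicate 3 gave 0.77 and leaving out vector replicate 2 gave 0.35. Without vector replicate 2, the Vec library that lay apart, the log2 fold change was 1.65 for PHGDH, 1.74 for PSAT1, 0.77 for PSPH, 0.19 for SHMT1, -0.17 for MTHFD1, 1.02 for SHMT2, 0.44 for MTHFD2 and 0.28 for MTHFD1L.

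The balance between compartments differed in both enzyme pairs. Per length of the longest annotated transcript, SHMT2 stood at 3.43, 3.64 and 3.63 times the SHMT1 level in OE, against 1.99, 2.15 and 2.01 times in Vec. MTHFD1L stood at 0.910, 0.869 and 0.855 times MTHFD1 in OE, against 0.615, 0.520 and 0.674 times in Vec. No OE ratio fell among the Vec ratios in either pair. The size of the SHMT2 ratio rests on the length chosen: with the union of exons it was 6.64 ± 0.22 in OE and 3.82 ± 0.16 in Vec (SD, n = 3 each), while its change between the groups, 1.74 times, does not depend on length.

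**Figure D2:**
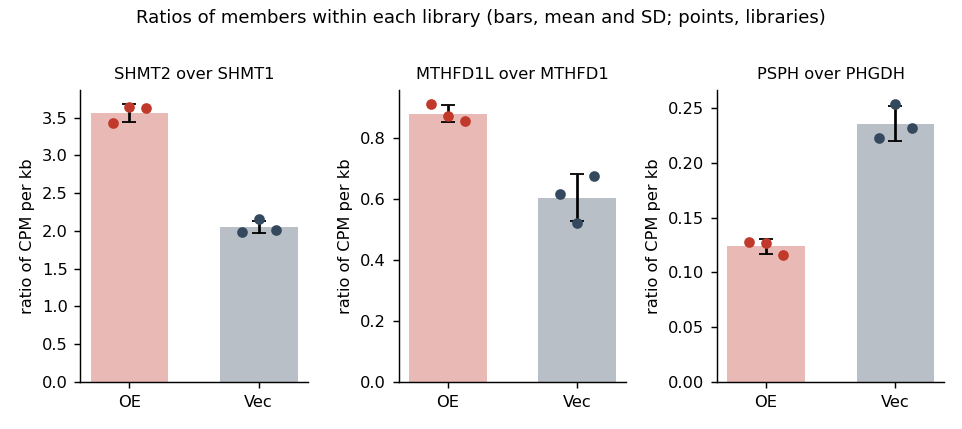
Ratio of 2 members' levels within each library, as CPM per kilobase of the longest annotated transcript (vertical axes from 0), for the OE and Vec libraries; bars are means, whiskers SD and points libraries. SHMT2 over SHMT1 and MTHFD1L over MTHFD1 are higher in every OE library, and PSPH over PHGDH is lower in every OE library.

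Ordered by CPM per kilobase of the longest transcript, the OE libraries had PHGDH (213 ± 6.30) above PSAT1 (196 ± 3.22), SHMT2 (126 ± 3.90) and MTHFD2 (98.0 ± 1.69), then MTHFD1 (37.0 ± 1.18), SHMT1 (35.5 ± 0.814), MTHFD1L (32.4 ± 0.255), PSPH (26.4 ± 0.697) and ALDH1L2 (0.170 ± 0.0256; SD, n = 3). In Vec the leading 4 lay within or near their spread: MTHFD2 (66.6 ± 9.13), PHGDH (66.3 ± 2.06), SHMT2 (63.9 ± 3.20) and PSAT1 (53.8 ± 7.42). By the longest transcript, MTHFD1 and SHMT1 were neighbours in the OE order that differed by little more than their spread. By the union of exons MTHFD1 (26.9 in OE) was above MTHFD1L (23.3), PSPH (20.8) and SHMT1 (13.4). With the union of exons as length, PHGDH (73.6 CPM per kilobase in OE) came after PSAT1 (196), MTHFD2 (89.6) and SHMT2 (89.2), so its place in the order is not fixed by these data. The PHGDH share of the summed CPM of the 9 genes was 27.1% in OE and 15.7% in Vec, and that of MTHFD1 10.1% in OE and 21.5% in Vec.

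To show how the surrounding stretch of chromosome stood, each member was set beside the 20 nearest tested protein-coding genes on either side. Of all genes tested, 22.6% were called higher and 23.4% lower, with a median log2 fold change of 0.02. Around PSAT1 the 40 neighbours had a median log2 fold change of -0.48, with 19 called lower and 3 called higher, and none reached the 1.86 of PSAT1. The PSAT1 median was -0.27 with 10 neighbours on either side and -0.34 with 40, where 1 of 80 reached PSAT1. PHGDH lay among neighbours with a median of 0.31, of which 20 were called higher and 9 lower, and 2 of the 40 were at or above its 1.69. The stretches differed in length: the 40 neighbours of PHGDH ran from 114704469 to 145927678 on chromosome 1. Those of SHMT2 ran from 56416373 to 57768986 on chromosome 12. With 10 and with 40 neighbours the PHGDH median was 0.47 and 0.31. The median was 0.06 around SHMT2 (0.14 and 0.01 with the other windows), -0.07 around PSPH (-0.25 and -0.04), -0.16 around MTHFD2 (0.05 and -0.14), -0.09 around MTHFD1L (0.06 and -0.08) and -0.16 around ALDH1L2 (-0.04 and -0.03). Around SHMT1 it was 0.21, close to the 0.19 of SHMT1 itself, and 21 of the 40 neighbours were at or above that gene. With 10 neighbours on either side the SHMT1 median was -0.03, with 40 it was 0.14. Around MTHFD1 it was -0.01, or -0.15 with 10 and 0.19 with 40 on either side. The part of such stretches in the members' differences was not tested.

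**Figure D3:**
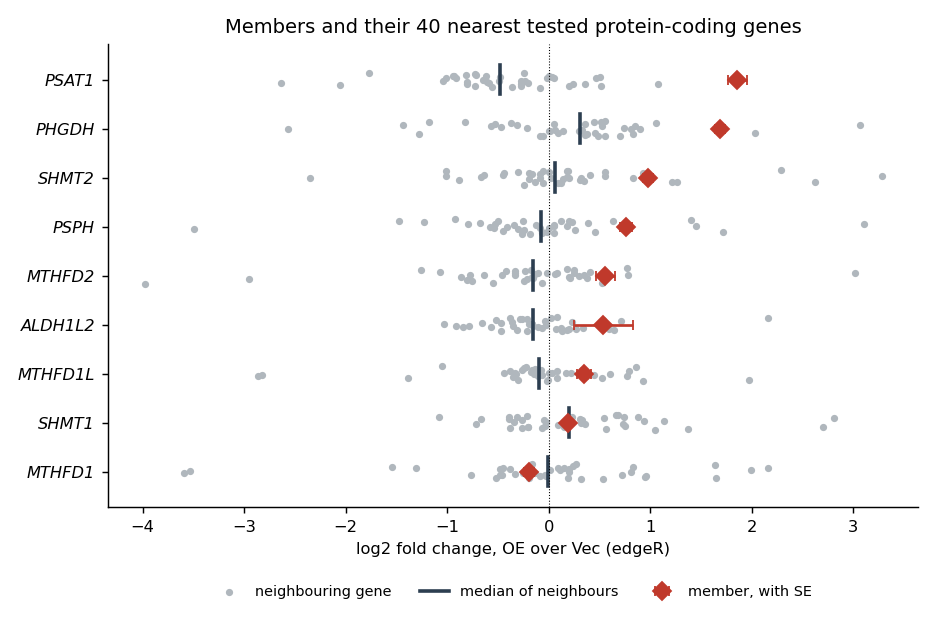
Log2 fold change, OE over Vec, of each member (red diamonds, whiskers SE) and of its 40 nearest tested protein-coding genes (grey points, dark bar the median). PSAT1 lies to the right of all its neighbours, whose median is -0.48, and SHMT1 lies near its neighbours' median of 0.21.

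Copies and overlapping genes set limits on some values. The pseudogene PSPHP1 held 86, 104 and 89 estimated counts in OE and 80, 113 and 108 in Vec, at most 4.7% of the PSPH count in a library, and reads may be split between the gene and its copy. The listed pseudogenes of PSAT1, SHMT1, MTHFD1 and MTHFD2 each stayed at or under 38 estimated counts in every library. The strand setting of the counting is not given in the sources used here, so reads of genes on the opposite strand cannot be told apart where exons overlap. C12orf45, which shares 145 exonic bases with ALDH1L2 on the opposite strand, had 3575, 4015 and 3568 estimated counts in OE and 3560, 5257 and 4195 in Vec, far above ALDH1L2, whose low count is uncertain to that extent. ZBTB25 shares 178 exonic bases with MTHFD1, SMCR8 196 with SHMT1, SLC4A5 1324 with MTHFD2 and NDUFA4L2 33 with SHMT2. In a library their counts reached at most 39%, 150%, 0.55% and 3.1% of the member's count. The log2 fold change was 0.54 for ZBTB25, -0.21 for SMCR8, 0.35 for SLC4A5, 2.29 for NDUFA4L2 and -0.19 for C12orf45. The antisense genes AL122035.2, sharing 756 bases with MTHFD1, and AC137834.2, sharing 427 with SHMT2, are not among the deposited symbols. The part of such reads in the members' values was not tested.

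Genes around the pathway were called lower more often than higher. Of 84 genes in 7 lists that surround the members, 75 were tested. Of these, 14 rose and 36 fell in OE (edgeR, adjusted p under 0.05). Their median log2 fold change was -0.17, that of all genes tested 0.02. Across all genes tested, 22.6% were called higher and 23.4% lower. Counts per list below that lie near these shares are not read as a trait of the list. The lists were drawn up with earlier results of these libraries known.

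**Figure D4:**
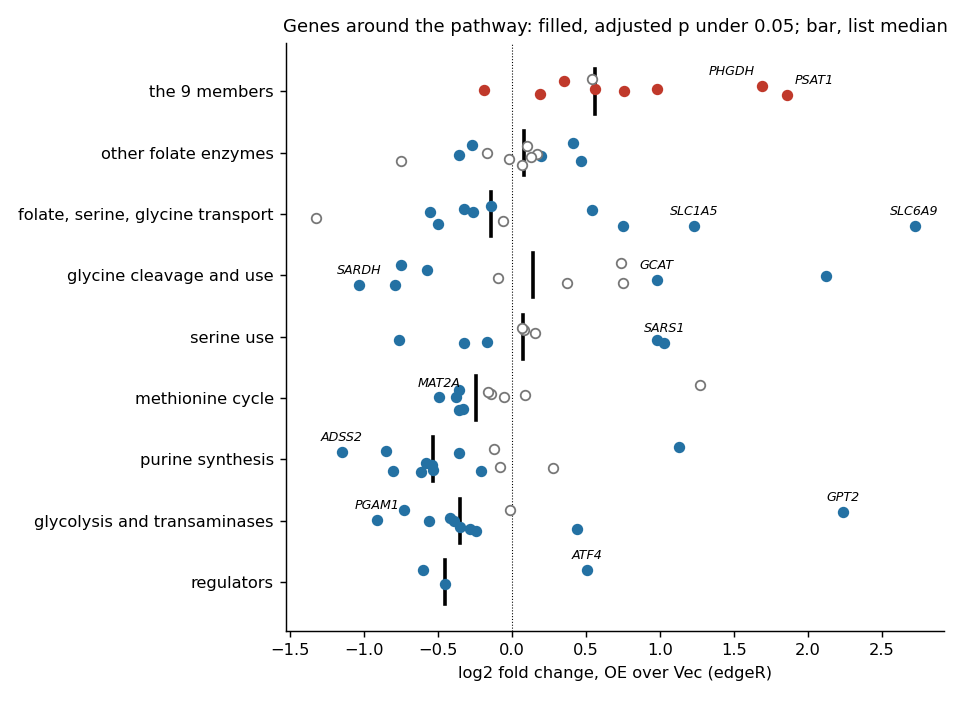
Log2 fold change, OE over Vec, of the 9 members (red) and of the tested genes of the surrounding lists and 3 regulators (blue); filled points passed adjusted p under 0.05, open points did not, and bars are list medians. Purine synthesis and glycolysis genes lie mostly left of 0, while SLC6A9, GPT2 and SLC1A5 lie to the right.

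Carriers of the pathway's substrates moved both ways: of 11 tested transport genes, 4 rose, 5 fell and the median log2 fold change was -0.14. SLC6A9, a glycine transporter gene of the plasma membrane, had 16.1, 16.7 and 17.0 CPM in OE, against 2.66, 2.60 and 2.29 CPM in Vec. All OE libraries were several times above the Vec ones (log2 fold change 2.72 ± 0.13, SE; edgeR adjusted p = 3.77e-06). SLC1A5, a transporter gene for glutamine and other neutral amino acids, serine among them, had 469, 457 and 482 CPM in OE and 212, 178 and 209 CPM in Vec, a rise of 1.23 ± 0.07 on the log2 scale (adjusted p = 8.4e-06). SLC1A4, its relative with a preference for serine and alanine, and SFXN3 also rose. Among those that fell were SLC25A38, a mitochondrial glycine carrier gene (log2 fold change -0.50 ± 0.10, adjusted p = 0.00327), and ABCC1, which exports drugs and folates (-0.32 ± 0.06, adjusted p = 0.0037). SFXN1, the main mitochondrial serine carrier gene, and SLC19A1, the reduced folate carrier gene, fell as well, SFXN1 by 0.14 and SLC19A1 by 0.55 on the log2 scale. The edgeR call of SFXN1 (adjusted p = 0.0262) was lost without OE replicate 2, OE replicate 3 or vector replicate 1 (adjusted p = 0.101, 0.0855 and 0.0603), with upper-quartile factors (0.118) and with the replicate block (0.0747).

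Other folate enzymes were called about as often as all genes, with 3 of 12 tested higher, 2 lower and a median of 0.08. The number called higher was 1 without any 1 of the OE replicates or without vector replicate 3, and the number called lower was 1 without OE replicate 2, OE replicate 3 or vector replicate 1. FPGS, which adds the glutamate tail that holds folates in the cell, fell by 0.36 (adjusted p = 0.00313). MTHFD2L, the close relative of MTHFD2, fell by 0.27 (adjusted p = 0.0314), and was not called without OE replicate 2, OE replicate 3 or vector replicate 1 (adjusted p = 0.0653, 0.1 and 0.0781) or with upper-quartile factors (0.0592). ALDH1L1, the cytosolic counterpart of ALDH1L2, had at most 11 estimated counts in a library and was not tested.

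Among 10 glycine genes, 2 were called higher and 4 lower, with a median of 0.14. GCAT, the glycine C-acetyltransferase gene, had a level of 55.2 ± 1.90 CPM in OE and 28.0 ± 1.89 CPM in Vec (SD, n = 3 each; edgeR adjusted p = 2.07e-05). SARDH, the sarcosine dehydrogenase gene, averaged 14.6 ± 0.347 CPM in OE and 29.8 ± 3.31 CPM in Vec (SD, n = 3 each; edgeR adjusted p = 8.75e-05), and GCSH, a carrier subunit of the glycine cleavage system, fell by 0.57 on the log2 scale (adjusted p = 0.00442). DMGDH, the dimethylglycine dehydrogenase gene and the other that rose, averaged 1.01 ± 0.314 CPM in OE and 0.233 ± 0.112 CPM in Vec (SD, n = 3 each) and was not tested under the stricter filter. Of 8 tested genes that use serine, 2 rose and 3 fell, with a median of 0.07. SARS1, the cytosolic seryl-tRNA synthetase gene, averaged 331.8 ± 3.70 CPM in OE and 163.0 ± 18.1 CPM in Vec (SD, n = 3 each; edgeR adjusted p = 3.14e-05). SPTLC3, a subunit gene of the sphingolipid-starting serine palmitoyltransferase, rose by 0.98 ± 0.26 (adjusted p = 0.0165), a call lost without OE replicate 3, vector replicate 1 or vector replicate 3 (adjusted p = 0.0735, 0.0597 and 0.0584). PTDSS2 and PTDSS1, the phosphatidylserine synthase genes, fell by 0.76 and 0.32 (adjusted p = 2.35e-05 and 0.000783).

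Lists downstream of the carbon units leaned lower. Of 13 purine synthesis genes, 9 fell, 1 rose and the median log2 fold change was -0.53. ADSS2, an adenylosuccinate synthase gene, had 45.0, 45.6 and 42.4 CPM in OE, against 99.4, 96.8 and 98.3 CPM in Vec (-1.15 ± 0.05, SE; edgeR adjusted p = 3.02e-06). ATIC, one of the enzymes of this list that consume formyltetrahydrofolate, had 104, 107 and 112 CPM in OE and 183, 192 and 187 CPM in Vec (-0.80 ± 0.05, adjusted p = 1.02e-05), and GART, the other, fell by 0.53. In both genes every OE library was below every Vec library. The gene that rose was ADSS1, the muscle-type relative of ADSS2, at under 1 CPM on average in either group. It was not called in 8 of the 14 alternatives and not tested under the stricter filter. Of 10 methionine cycle genes tested, 5 fell and 0 rose by edgeR, with a median of -0.24. At an unadjusted p under 0.05 in edgeR 1 was higher, MAT1A (1.27 ± 0.48, SE; adjusted p = 0.0603), which DESeq2 did not call and limma-voom did. It was also called with the replicate block, with counts divided by 4, and without vector replicate 2, where its log2 fold change was 2.17 (adjusted p = 2.88e-05). MTR, the methionine synthase gene, fell by 0.36 (adjusted p = 0.000216) and MAT2A, the S-adenosylmethionine synthase gene, by 0.49 (adjusted p = 0.000943).

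Around 3-phosphoglycerate, where serine synthesis leaves glycolysis, 11 genes of glycolysis, of transaminases and of glutamate dehydrogenase were tested. Of these, 8 fell and 2 rose, with a median log2 fold change of -0.35. PGAM1, the mutase gene that draws 3-phosphoglycerate down glycolysis, had 256, 260 and 265 CPM in OE, against 496, 478 and 488 CPM in Vec (-0.91 ± 0.04, SE; edgeR adjusted p = 3.08e-06). ENO1, an enolase gene, fell by 0.73 (adjusted p = 3.27e-05). The genes that rose encode transaminases. GPT2, the mitochondrial alanine transaminase gene, had 122, 125 and 119 CPM in OE, against 24.8, 28.6 and 23.9 CPM in Vec (2.24 ± 0.08, adjusted p = 9.61e-07), and GOT1, the cytosolic aspartate transaminase gene, rose by 0.44 ± 0.07 (adjusted p = 0.00167).

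Among the regulators, ATF4 had 702, 710 and 694 CPM in OE, against 519, 447 and 514 CPM in Vec, a rise of 0.51 ± 0.06 on the log2 scale (edgeR adjusted p = 0.00029). MYC, a transcription factor gene that also drives one-carbon genes, had 303, 303 and 304 CPM in OE, against 381, 620 and 381 CPM in Vec. All OE libraries were lower, and vector replicate 2 alone widened the Vec range. The change of MYC was -0.60 ± 0.17 (adjusted p = 0.0216), and the call was lost without any 1 of the OE replicates (adjusted p = 0.0698, 0.0706 and 0.0729). Without vector replicate 2 the log2 fold change of MYC was -0.34 (edgeR adjusted p = 1.14e-05). NFE2L2, the NRF2 gene, fell by 0.45 (adjusted p = 0.000788). RNA of a regulator does not measure its protein or activity.

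The mean profile of the 9 members over the 6 libraries, each centred on its own mean on the log2 scale, was 0.35, 0.35 and 0.39 in OE and -0.36, -0.44 and -0.29 in Vec. PSPH (0.180) and MTHFD2 (0.294) lay closest to that profile by Euclidean distance on the log2 CPM scale, and PSAT1 (1.41), PHGDH (1.17) and MTHFD1 (1.15) farthest. Among 13965 other genes that averaged 100 or more estimated counts, the nearest were TOM1L2 (0.0437), TCF19 (0.0505), MAST2 (0.0524), APBB3 (0.0684) and PLD3 (0.0778). Their log2 fold changes were 0.73 to 0.75, which follows from picking them by nearness to that profile.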

How the data were processed

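Total RNA of 6 Jurkat libraries, 3 OE and 3 Vec, was made into TruSeq libraries, per the labels' protocols. The authors deposited estimated counts per gene symbol, as whole numbers whose totals ran from 59911578 to 84220970 per library. The submitters' processing notes name build hg38 and fastp 0.23.2, STAR 2.7.10a, StringTie and DESeq2. The annotation and the strand setting of the counting are not given in the sources used here. In every library more genes had a deposited count of 4 than of 3, so a read pair may be worth about 4. Each count below 3 was more frequent still in every library, so that worth is not settled. No counting interval is given, and 12, worth 3 such pairs, served as the floor, for counting error only.

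After the default filter of edgeR 4.0.16 (R 4.3.3) and TMM scaling, 21055 genes were tested by the quasi-likelihood F test (group only; Benjamini-Hochberg adjustment, threshold 0.05). The SE of a log2 fold change comes from its F statistic. The members, lists and tests were chosen with earlier results of these data known, so no p-value is given for the members, and their calls are a description. Named genes are the members, PDCD1, 3 regulators, and up to 2 risen and 2 fallen genes per list, by smallest adjusted p among called genes averaging 100 or more estimated counts; DMGDH, SLC1A4, SFXN1, SFXN3, SLC19A1, GART, ADSS1, MAT1A and ALDH1L1 were named after their values were seen, as was CD2 among the T-cell markers. Some genes that the rule names among the other folate enzymes are not reported here, though the list's counts include them. Positions, overlaps and lengths are from GENCODE 29 on GRCh38, the assembly hg38 names, and promoters from RefSeq on GRCh38.p14. Alternatives were DESeq2 1.42.0, voom from limma 3.58.1, other scaling factors, other filters, a replicate block, counts divided by 4 and each library left out. Figures were drawn with matplotlib 3.10.9.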

Additional observations from a re-analysis of the deposited data

How the results depend on the processing

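Under all 14 alternatives tried across genes, 7 of the 9 members were called higher, by DESeq2 and limma-voom as well. The number called lower was 0 with upper-quartile factors, and between 0 and 1 when single libraries were left out; the 0 came without OE replicate 1, where the log2 fold change of MTHFD1 was -0.17 and missed the threshold. Of the 126 log2 fold changes of members under these alternatives, 122 lay within 1 SD of the reported value and 0 changed sign. The others were PHGDH (1.73), PSPH (0.80) and SHMT1 (0.24) with upper-quartile factors, and ALDH1L2 (0.77) without vector replicate 3. Upper-quartile scaling moved the median of all genes tested to 0.06, from 0.02. The numbers called over all genes ran from 3741 to 5318 as higher and from 4175 to 5576 as lower. Genes tested numbered 14917 with the stricter filter, 40234 with no filter, and lay between in the others. In the main setting 22.6% of all genes tested were called higher and 23.4% lower. With the union of exons as length, SHMT2 over SHMT1 was 6.64 in OE and 3.82 in Vec.

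With the replicate number as a block, 7 members were called higher and 1 lower, and 14 surrounding genes were called higher and 35 lower. Libraries with the same number did not deviate together (correlations of 0.005, 0.001 and 0.023), so no pairing by number was seen. Whether they were grown or prepared together is not stated, and these correlations cannot settle it. Calls that genes named from the lists lost under an alternative are given or counted beside each gene. ALDH1L2 had at most 95 estimated counts in a library and an SD of 28.3% of the mean in Vec.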
